A study of Mus musculus with 2 samples.

Results

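Cytosolic ribosomal proteins are the protein part of the ribosomes that translate messenger RNA in the cytoplasm. Their genes were taken as the named gene probes whose name is Rpl or Rps followed by digits and at most one letter a or x, or Rplp0, Rplp1 or Rplp2. S6 kinase genes, Rps27l and the mitochondrial ribosomal proteins were left out. This gave 83 probes for 54 genes, out of 31920 gene probes for 19439 named genes on the array. The large subunit had 48 probes for 32 genes and the small subunit 35 probes for 22 genes.

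The liver RNA came from 3-month-old mice that had undergone partial hepatectomy, the surgical removal of liver lobes, after which the remaining liver regrows. Wip1 KO liver was hybridised against WT liver on a 2-colour oligonucleotide array, with 1 array for RNA taken 24 h after the operation and 1 for RNA taken 36 h after it. Wip1 KO mice lack the phosphatase Wip1, the product of Ppm1d, which acts on p53 and on the DNA damage response; the labels give no strain, sex or number of pooled animals and do not say whether the deletion is in all cells. At both times Cy5 marked the Wip1 KO RNA and Cy3 the WT RNA, with no array of exchanged dyes, so a dye preference of a probe and an effect of genotype cannot be told apart. No group had a second array. Variation between mice was therefore not measured, no p-value can be given, and precision is limited by the number of arrays.

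A ribosome joins a small subunit, which reads the messenger RNA, to a large subunit, which forms the peptide bonds. Most ribosomal protein messenger RNAs begin with a run of pyrimidines, the 5′ terminal oligopyrimidine (TOP) motif, through which mTORC1 controls their translation, and Myc raises their transcription in growing cells. When ribosome assembly is disturbed, Rpl5 and Rpl11 outside the ribosome bind Mdm2, the ubiquitin ligase of p53, and human RPL23 binds it too. A regrowing liver makes many new ribosomes before and during cell division.

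Promoter sequences were found in RefSeq's GRCm38.p6 table for 38 of the 54 genes, which lie on 19 chromosomes. A TOP-type run, defined as a C followed by at least 4 letters that are each C or T, on the gene's strand and beginning no more than 5 bases from the annotated start, was present at the start of 18 genes. These runs were 5 to 20 bases long with a median of 9.5. Among the 43 promoter entries of these genes 41.9% held such a run (39.3% for the large and 46.7% for the small subunit), against 18.3% of all 32851 promoters and 22.7% of those of mitochondrial ribosomal proteins. The following 30 bases around the annotated start are shown for 6 genes with a run, in capitals, chosen because results below turn on them. They span chr4:86857353-86857382 on the minus strand for Rps6, chr7:118116133-118116162 on the minus strand for Rps15a, chr13:90923107-90923136 on the plus strand for Rps23, chr2:32961697-32961726 on the plus strand for Rpl12, chr14:18270972-18271001 on the minus strand for Rpl15 and chr7:4792950-4792979 on the plus strand for Rpl28.
Rps6: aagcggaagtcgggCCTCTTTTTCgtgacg
Rps15a: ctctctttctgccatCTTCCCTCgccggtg
Rps23: gccttcggctgggcggggCTTCCCgcaatg
Rpl12: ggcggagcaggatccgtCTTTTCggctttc
Rpl15: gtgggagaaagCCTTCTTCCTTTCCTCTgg
Rpl28: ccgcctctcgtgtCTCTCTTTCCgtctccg

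No such run was found near the annotated start of 3 further genes described below, Rpl5 (chr5:107900513-107900542, plus strand), Rpl23 (chr11:97782425-97782454, minus strand) and Rpl37a (chr1:72711245-72711274, plus strand), whose windows are shown for comparison.
Rpl5: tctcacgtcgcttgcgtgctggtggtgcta
Rpl23: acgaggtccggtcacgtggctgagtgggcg
Rpl37a: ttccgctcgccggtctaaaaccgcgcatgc

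Besides the run, CCGGAAG was searched on both strands of the 300-base promoters (250 bases before and 50 after the start), and 32.6% of the ribosomal protein entries held it, against 8.86% of all promoters and 34.7% of those of mitochondrial ribosomal proteins. AAGATGGCG, searched likewise, was held by 11.6% of them, against 1.40% of all promoters and 10.7% of the mitochondrial ones.

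Of the 54 genes, 52 were measured at 24 h (32 large, 20 small) and 50 at 36 h (30 large, 20 small). A gene was measured where both its channels were above background, that is, brighter than the surrounding background with a margin of over 2 SDs of that background. Rps12 was below background in all 4 channels. Rpl22 and Rpl27a were above background at 36 h in WT only. Their Wip1 KO readings, 218 and 199, lay below background beside 217 and 239 in WT, so no fold is given for either. No spot of a ribosomal protein gene was saturated. Levels below are normalised intensities of the brightest probe of each gene, and a level is compared only between channels of its own probe; sums over marker lists serve only to compare channels. By spot brightness, which also depends on the probe, 40 of 52 at 24 h and 39 of 50 at 36 h lay in the brightest 10% of measured genes.

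Over all gene probes, 31.1% to 33.2% were above background in Wip1 KO channels and 36.8% to 41.4% in WT channels. Ppm1d was below background in all 4 channels on its only probe, so the arrays do not check which channel holds the KO RNA. At 36 h the summed level of 7 male-biased liver genes was 66205 in Wip1 KO against 12871 in WT, that of 9 female-biased genes 15302 against 134093, and that of 5 Y-linked genes, of which 2 were measured, 4945 against 1430. At 24 h the male-biased sum was 19239 in Wip1 KO against 19795 in WT, the female-biased one 37168 against 66047 and the Y-linked one 1168 against 1081. The sex of the mice is not given in the labels, and its part in the results below was not tested. All 8 hepatocyte markers were above background in every channel. In bulk RNA, fewer cells of a type and less RNA per cell cannot be told apart.

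The first comparison asks how Wip1 KO and WT liver differed in ribosomal protein RNA at 24 h. As a group they had no common direction: 27 of 52 genes had a log2 ratio of Wip1 KO over WT above 0 and 25 below it, where 48.2% of all measured genes were below. The median log2 ratio was −0.0086 for the large subunit (16 above and 16 below 0) and 0.012 for the small subunit (11 above and 9 below), beside 0.014 over all 8018 measured genes. At 2-fold, 2.29% of all genes were apart and no ribosomal protein gene was. At a smaller threshold of 0.32 log2 units, 6 ribosomal protein genes were higher and 2 lower in Wip1 KO, where 18.7% and 15.1% of all genes were. With each array centred on its median in place of loess, these numbers were 5 and 7, beside 11.5% and 25.1% of all genes.

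Single genes departed from this balance by more. Rpl23, a protein on the face of the large subunit that meets the small one, had a level of 23515 in Wip1 KO against 14993 in WT (log2 ratio 0.65, or 1.57-fold). Rpl5 stood at 16669 in Wip1 KO against 12557 in WT (0.41, or 1.33-fold). Rpl35a stood at 8156 in Wip1 KO against 6775 in WT (0.27). These were the 3 highest genes of the large subunit. At its lower end, Rpl22, an RNA-binding protein, was dim in both channels, at 160.3 in Wip1 KO against 218 in WT (−0.45). Rpl15 had 3818 in Wip1 KO against 4697 in WT (−0.30). Rplp1, one of the acidic proteins of the stalk that receives the elongation factors, had 2454 in Wip1 KO against 2919 in WT (−0.25).

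In the small subunit, Rps15a had the highest ratio, at 689.9 in Wip1 KO against 449 in WT (0.62, or 1.54-fold). Rps6, the protein that S6 kinases phosphorylate, followed at 12343 in Wip1 KO against 9196 in WT (0.42, or 1.34-fold). Rps21 had 8184 in Wip1 KO against 6260 in WT (0.39). Rps23, part of the decoding centre, was close behind at 16384 in Wip1 KO against 12598 in WT (0.38). The lowest was Rps3, a protein at the entry of the messenger RNA channel that also takes part in DNA repair, at 8009 in Wip1 KO against 10419 in WT (−0.38). Rps15 had 9914 in Wip1 KO against 12384 in WT (−0.32), and Rps9 7125 against 8823 (−0.31). The higher and the lower genes did not separate by subunit, and both subunits spanned about the same range, from −0.45 to 0.65 for the large and from −0.38 to 0.62 for the small.

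**Figure D1:**
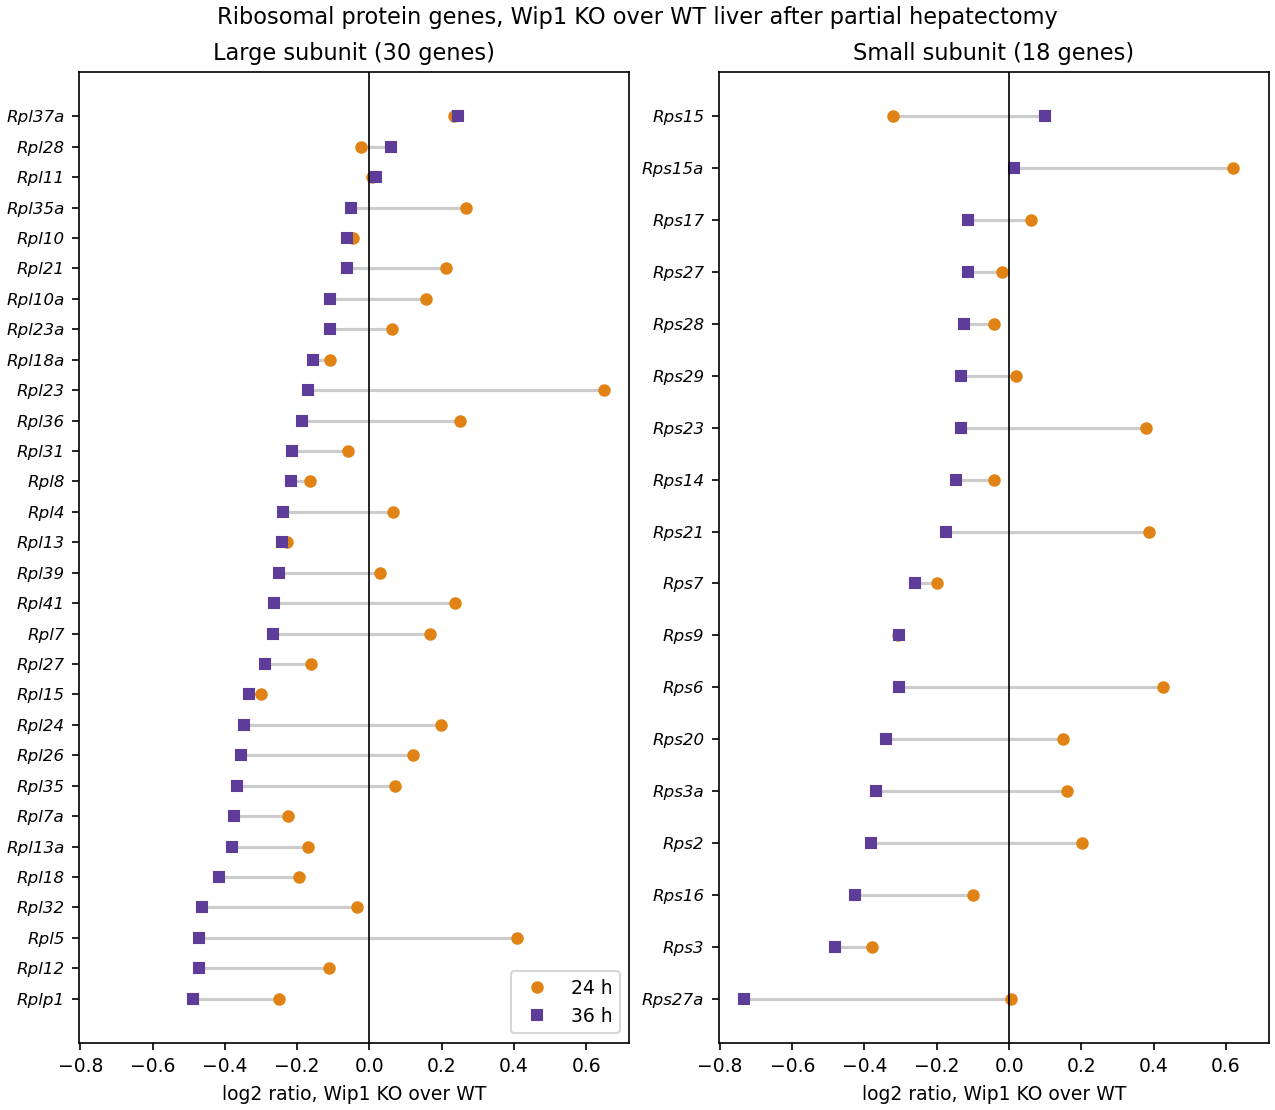
Log2 ratio of Wip1 KO over WT for 48 of the 50 ribosomal protein genes measured at both times (horizontal axis), with the large subunit on the left and the small on the right; circles are 24 h and squares 36 h, 1 array each, and genes are ordered by the 36 h ratio. The circles lie on both sides of 0, while 43 of the 48 squares lie below it, down to −0.73 for Rps27a.

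At 36 h the group lay below WT almost throughout. Of 50 measured genes 45 had a log2 ratio below 0 (90.0%), where 46.0% of all 7460 measured genes did. With median centring 34 of 50 were below 0 and 16 above, beside 39.6% of all genes below. The median log2 ratio was −0.25 in the large subunit (27 of 30 below 0) and −0.22 in the small (18 of 20 below 0), beside 0.033 over all genes, and over both subunits it was 1.19-fold lower in Wip1 KO. The shift was small for each gene: none reached 2-fold, which 4.72% of all genes did. By at least 0.32 log2 units, 18 ribosomal protein genes were lower and 0 higher in Wip1 KO (11 lower in the large and 7 in the small subunit), where 16.2% and 21.5% of all genes were. Median centring gave 7 lower and 1 higher, beside 12.6% and 25.3% of all genes. Over all 7 alternatives the median of the group stayed below 0, from −0.33 to −0.13. On the same array the 5 measured markers of dividing cells had a median of −2.30 and the 8 hepatocyte markers one of 1.17, and their part in the lower ratios was not tested.

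**Figure D2:**
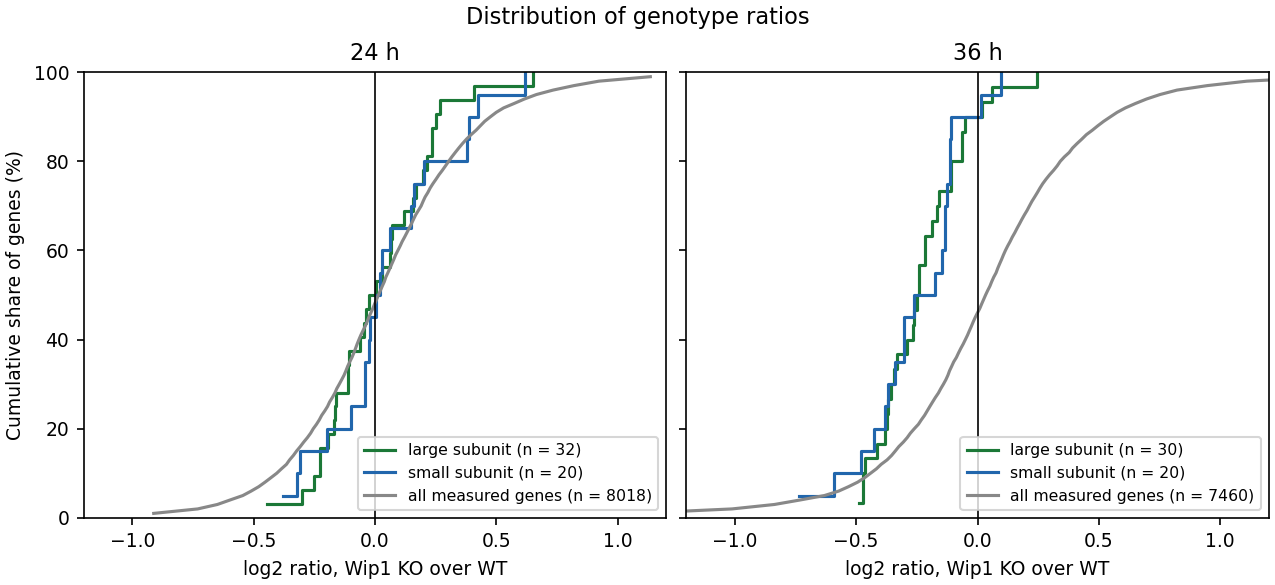
Cumulative share of genes (vertical axis, %) by log2 ratio of Wip1 KO over WT (horizontal axis, cut at 1.2 each way) for the large subunit, the small subunit and all measured genes, at 24 h on the left and 36 h on the right. At 24 h the 3 lines cross 0 at like shares (16 of 32 genes, 9 of 20 genes and 48.2% below 0). At 36 h both subunits have 90.0% of genes below 0 and all genes 46.0%, a gap that keeps its direction under median centring.

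The lowest genes of the large subunit were Rplp1, Rpl12 and Rpl5. Rplp1 had a level of 2258 in Wip1 KO against 3166 in WT (−0.49). Rpl12, which forms the base of that stalk, had 9534 in Wip1 KO against 13231 in WT (−0.47). The other, dimmer probe of Rpl12 was at −0.13. Rpl5 had 10703 in Wip1 KO against 14847 in WT (−0.47, or 1.39-fold lower), so its ratio lay on the other side of 0 from its ratio at 24 h. Next came Rpl32 at 7473 in Wip1 KO against 10303 in WT (−0.46). Its pseudogene Rpl32-ps, which has a probe of its own, had 6225 in Wip1 KO against 8889 in WT (−0.51). Cross-hybridisation among such copies is possible for this family, so the 2 probes cannot be taken as separate transcripts.

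Only 3 large-subunit genes were above 0 at 36 h. Rpl37a had 10788 in Wip1 KO against 9110 in WT (0.24) and was the only one of the 50 genes that stayed above 0 under all 7 alternatives. Rpl28 had 11272 in Wip1 KO against 10824 in WT (0.059), and Rpl11, the Mdm2-binding partner of Rpl5, 4334 against 4278 (0.019). Both of these ratios changed sign under at least 1 alternative. Rpl5 and Rpl11 thus had unlike values at this time on the brightest probe of Rpl5. The second Rpl5 probe lay at −0.16, while Rpl11 ranged from −0.25 to 0.13 over the alternatives. A test of the difference between both genes was not possible.

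In the small subunit, Rps27a, which is made as a fusion with ubiquitin, had the lowest ratio, with 8577 in Wip1 KO against 14263 in WT (−0.73, or 1.66-fold lower). Rps3 had 8575 in Wip1 KO against 11967 in WT (−0.48). Rps6 had 8822 in Wip1 KO against 10897 in WT (−0.30). At the upper end stood Rps15 with 14200.4 in Wip1 KO against 13263 in WT (0.099) and Rps15a with 593 against 588 (0.014). Both of these small-subunit ratios changed sign under at least 1 alternative. Of the 45 genes below 0 at 36 h, 32 were below 0 under every alternative tried.

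The next question is how far the ratio of each gene moved between the times. Of the 50 genes measured in all 4 channels, 45 had a lower ratio at 36 h than at 24 h, beside 46.8% of 7025 genes overall. Median centring gave 28 of 50 (18 of 30 in the large and 10 of 20 in the small subunit), beside 31.1% of all genes. In 24 of the 50 genes the ratio was above 0 at 24 h and below 0 at 36 h (beside 21.7% of all genes), in 21 it was below 0 at both times (25.3% of all genes), in 3 above 0 at both (27.8%), and in 2 below 0 at 24 h and above at 36 h (25.2%). None differed by 2-fold between the times, which 8.27% of all genes did. The difference of the log2 ratios, 36 h minus 24 h, had a median of −0.25 in each subunit, beside 0.031 over all genes. By at least 0.32 log2 units, 20 genes had a lower and 1 a higher ratio at 36 h, where 21.9% and 26.1% of all genes did. Under median centring the numbers were 10 and 1, beside 13.1% and 41.0%. That setting moved the median difference of all genes to 0.22 and that of the 50 ribosomal protein genes to −0.049. The distance between both medians was −0.27 under it and −0.28 as reported.

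The most negative differences were those of Rpl5 (−0.88) and Rpl23 (−0.82). Rpl23 stood at 18650.1 in Wip1 KO against 20963 in WT at 36 h (−0.17). The other, dimmer probe of Rpl23 had a difference of 0.23, on the other side of 0. Rpl24 came next in the large subunit (−0.54), with 7090 in Wip1 KO against 9011 in WT at 36 h and 9324 against 8122 at 24 h. In the small subunit the most negative were Rps27a (−0.74), Rps6 (−0.73) and Rps15a (−0.60). At 24 h Rps27a was level, at 9879 in Wip1 KO against 9846 in WT, whereas Rps6 and Rps15a were above WT. Rps15 went the other way (0.42), the only gene whose ratio was higher at 36 h by over 0.32, but on 1 of its 2 probes only. The other probe differed by 0.0015 between the times, and the mean over probes gave 0 such genes. Of the remaining genes at the upper end, Rps9 (0.0040), Rpl37a (0.0093) and Rpl11 (0.013) kept almost the same ratio at both times, and Rpl28 (0.082) and Rps7 (−0.060) moved little. Rps7 had 4956 in Wip1 KO against 5933 in WT at 36 h and 4775 against 5484 at 24 h, and Rps9 had 7150.2 against 8830 at 36 h. Rpl37a had 10823 against 9198 at 24 h, Rpl11 3832 against 3816 and Rpl28 14110 against 14339.

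Across the genes, the ratios at both times were only weakly related (Pearson r 0.24 and Spearman rho 0.25 over the 50 genes, and 0.065 and 0.055 over all 7025). Genes are not independent replicates and each time is 1 array, so this is a description. Rpl15 and Rps9 were among the genes with alike values below 0 at both times, with Rpl15 at −0.33 and Rps9 at −0.30 at 36 h.

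The times were also set against each other within each genotype. These values reuse the 4 channels of the comparisons above, and they rest on brightness made equal between arrays. In Wip1 KO, 32 of 50 genes were lower at 36 h than at 24 h, with medians of −0.11 in the large and −0.15 in the small subunit, beside 0.053 over all 7113 genes, of which 44.9% were lower. In WT, 42 of 52 genes were higher at 36 h, with medians of 0.18 and 0.17, beside 0.027 over all 8587 genes, of which 53.9% were higher. The Wip1 KO values depended on the scaling: under median centring their medians were −0.012 in the large subunit (14 genes above and 16 below 0) and −0.054 in the small. That setting moved the median of all genes as well, to 0.15. Over both subunits the Wip1 KO median lay −0.16 from it, and −0.16 as reported. Without scaling between arrays the Wip1 KO medians by subunit were −0.048 and −0.074, and over both subunits the median lay −0.043 from that of all genes. The WT medians were 0.082 and 0.071 under median centring and 0.22 and 0.25 without scaling between arrays. Over both subunits the WT median lay 0.14 from that of all genes under median centring, and 0.15 as reported.

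**Figure D3:**
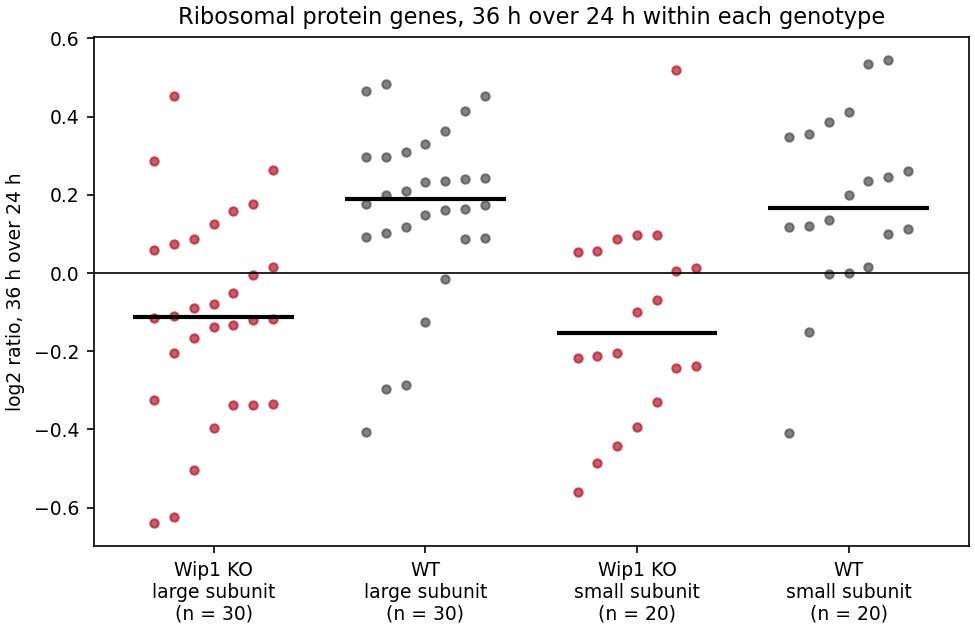
Log2 ratio of 36 h over 24 h (vertical axis) within Wip1 KO and within WT for the 30 large-subunit and 20 small-subunit genes measured in all 4 channels; each point is 1 gene and the bar is the median. The medians lie below 0 in Wip1 KO and above 0 in WT for both subunits, and they do so under every alternative.

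By at least 0.32 log2 units, 13 genes were lower and 2 higher at 36 h in Wip1 KO, where 19.7% and 25.6% of all genes were, and 3 lower and 12 higher in WT, where 13.9% and 16.8% were. Under median centring the numbers were 6 lower and 4 higher in Wip1 KO, beside 15.6% and 33.6% of all genes, and 5 lower and 5 higher in WT, beside 19.2% and 11.9%. Rpl5 was at 10703 at 36 h against 16669 at 24 h in Wip1 KO (−0.64), and at 14847 against 12557 in WT (0.24). Rps27a stood at 8577 against 9879 in Wip1 KO (−0.20) and at 14263 against 9846 in WT (0.53), so in this gene the WT channel moved further. Rpl41, the smallest ribosomal protein, was at 941 at 36 h against 1451 at 24 h in Wip1 KO (−0.62) and at 1129 against 1232 in WT (−0.13). Rps29 had 5492 against 8100.3 in Wip1 KO (−0.56) and 6018 against 7995 in WT (−0.41), and Rpl8 likewise was below 0 in both genotypes (−0.34 in Wip1 KO and −0.29 in WT). Rpl13 (0.45 in Wip1 KO and 0.46 in WT) was higher at 36 h in both.

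In Wip1 KO no measured ribosomal protein gene differed by 2-fold between the times, which 6.17% of all genes did. In WT 1 did, where 2.92% of all genes did: Rpl27a, at 239 at 36 h against 1058 at 24 h (−2.15). The Wip1 KO channel of that probe was as low, at 199 (below background) at 36 h against 982 at 24 h. A dimmer probe of Rps2 was likewise dim on the 36 h array in both channels, at 115 in Wip1 KO and 140.2 in WT, against 496 in Wip1 KO and 591 in WT at 24 h. The other 3 Rps2 probes had 36 h over 24 h ratios of 0.35 to 0.45 in WT. Whether these single spots were faulty on the 36 h array was not tested.

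Repeated spots and repeated probes show how much of this lies within the error of an array. The array holds 48 control spots for Rpl5, which were not counted among the probes above. At 24 h their mean log2 ratio was 0.45 ± 0.13 (SD, n = 48 spots of 1 array), with all 48 above 0, near the 0.41 and 0.48 of its 2 gene probes. At 36 h their mean was −0.19 ± 0.15, with 6 of 48 above 0, while the gene probes stood at −0.47 and −0.16. All 48 spots had a lower ratio at 36 h, by a mean of −0.64 ± 0.12. Spots of an array share their RNA, so this spread is that of printing and hybridisation, not of mice. A lower ratio at 36 h was not particular to the Rpl5 spots. The mean difference was −0.67 for the control spots of Actb and −0.29 for those of Ldha, each with 0 of 48 above 0. For those of Gapd it was 0.095, with 34 of 48 above 0.

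**Figure D4:**
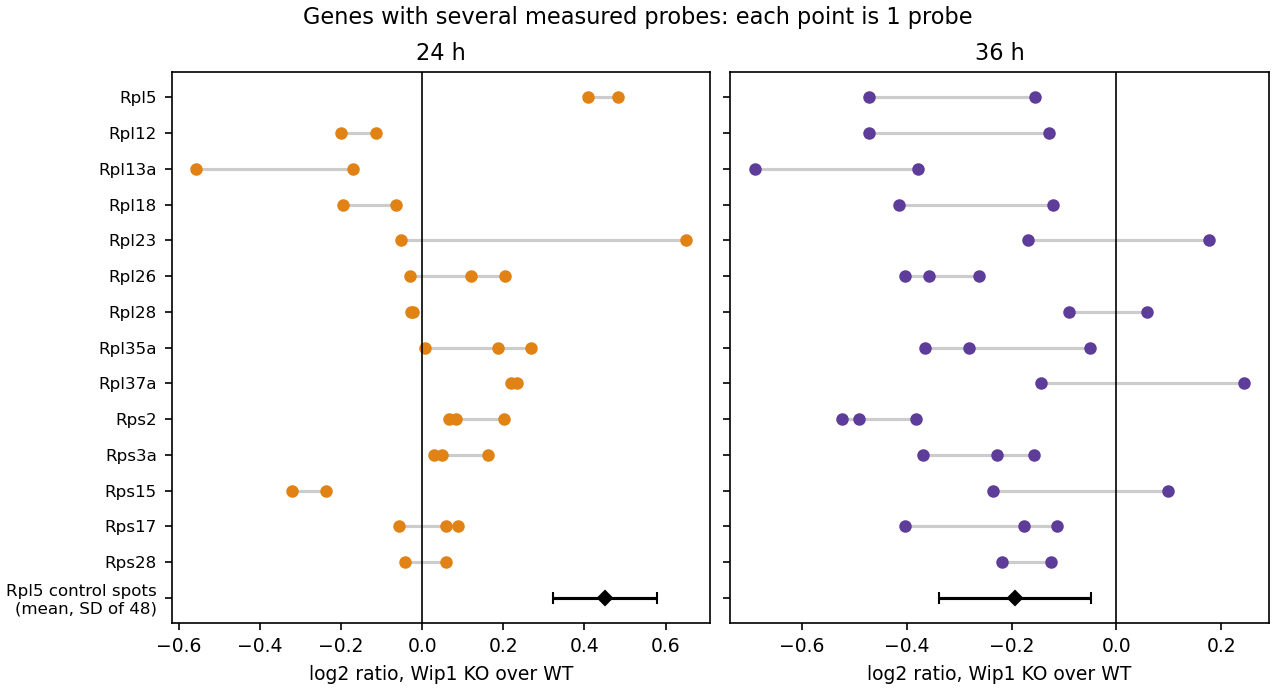
Log2 ratio of Wip1 KO over WT (horizontal axis) of each measured probe for ribosomal protein genes with several probes measured at both times, at 24 h on the left and 36 h on the right, with the mean and SD of the 48 Rpl5 control spots in the last row. At 36 h most probes lie below 0; Rpl23, Rpl28, Rpl37a and Rps15 have a probe on each side of it.

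Probes for the same gene had a pooled SD of 0.18 at both times (15 genes with 36 probes at 24 h, 16 genes with 37 probes at 36 h). Control spots of 4 genes had a pooled SD of 0.11 at 24 h and 0.15 at 36 h. A single gene at −0.2 is thus within the spread of its own probes. How many genes lie on one side is therefore given, as a description only. The genes share their RNA and array and are not replicates. Median centring alone moved the count below 0 at 36 h from 45 to 34 of 50. At 24 h 6 genes had probes on both sides of 0, and at 36 h 4 did. Rpl23 was the only gene whose probes differed by over 0.5 at 24 h: its dimmer probe had 533 in Wip1 KO against 553 in WT (−0.052), and at 36 h 628 against 556 (0.18). Its high 24 h ratio and its negative difference between the times therefore rest on 1 of 2 probes. Rpl37a was also above 0 at 36 h on its brighter probe only, the other being at −0.14. The 3 probes of Rps2 measured at both times lay at −0.52, −0.49 and −0.38 at 36 h, all 3 probes of Rpl26 between −0.40 and −0.26, and both of Rpl13a at −0.69 and −0.38. At 24 h a further probe of Rps2, dimmer and not measured at 36 h, had −0.25 and the other 3 had 0.067 to 0.20, while both Rpl13a probes were below 0, at −0.56 and −0.17.

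Ribosomal protein genes filed under older or other names were not members and gave like values. 1100001I22Rik, now Rpl34, had 434 in Wip1 KO against 681 in WT at 36 h (−0.65), after 394 against 424 at 24 h (−0.11). Rpsa and Rack1, small-subunit proteins outside the name rule, had ratios of −0.070 and 0.00050 at 24 h and −0.18 and −0.074 at 36 h. Arbp, now Rplp0, was below background in at least 1 channel at each time. Of 5 measured paralogs outside the name rule, 2 were above 0 at 24 h (Rps27l, a p53 target, at 0.31, and Rpl39l at 0.16), and at 36 h 1 of 4 was, Rps4l at 0.11, with Rps27l at −0.15 and Rpl7l1 at −0.24.

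Genes of the mitochondrial ribosome, which translates the few messages of the mitochondrial genome, gave other values. Of 70 measured mitochondrial ribosomal protein genes, 53 were below 0 at 24 h (median −0.21), beside 48.2% of all genes. By at least 0.32, 22 were lower and 0 higher, where 15.1% and 18.7% of all genes were. Among the lowest were Mrps27 (−0.89) and Mrpl9 (−0.82). Mrps28 (0.30) and Mrpl1 (0.23) had the highest ratios. At 36 h 41 of 69 were below 0 (median −0.039, or 0.055 under median centring), beside 46.0% of all genes. By at least 0.32, 8 were lower and 1 higher, where 16.2% and 21.5% of all genes were. Mrps9 (−0.52) and Mrps6 (−0.41) were lowest and Mrpl34 (0.45) and Mrpl19 (0.28) highest. The cytosolic genes had their lower ratios at 36 h, and the mitochondrial ones at 24 h. No test of that difference was possible.

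Other genes of the translation machinery were mixed. Of 6 measured genes listed as elongation factors by name or role, 4 were below 0 at 36 h (median −0.31, after −0.052 at 24 h). Eif5a was at −0.52 and Eef1b2 at −0.41. Eef1a1, the factor that brings aminoacyl-tRNA to the ribosome, was at 0.52, and Eef1e1, listed by its name only, at 0.19. Of 14 other genes with TOP messenger RNAs 10 were below 0 at 36 h (median −0.12, or −0.014 under median centring), from Vim (−0.61) and Btf3 (−0.48) to Nap1l1 (0.23) and Eif4b (0.40). At 24 h 9 of the 14 were above 0, with a median of 0.044 (−0.037 under median centring), Vim at 1.39, Hnrnpa1 at 0.30, Eif3f at −0.21 and Nme2 at −0.24. Ribosomal protein genes with a pyrimidine run at the start had a median of −0.30 at 36 h (n = 17) and those without one −0.25 (n = 18). At 24 h the medians were −0.022 (n = 18) and 0.0060 (n = 19).

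Among S6 kinases and regulators of mTORC1, 5 of 10 were below 0 at 36 h (median −0.014, or 0.016 under median centring). Mtor, the kinase of that complex, had the lowest ratio there at −0.80 after 0.67 at 24 h, and Tsc2, which restrains it, was at −0.34. Rps6kb2 (0.57) and Eif4ebp2 (0.33) were highest. At 24 h 7 of 11 were above 0 (median 0.11, or −0.020 under median centring), with Eif4ebp2 at 0.52 next to Mtor, and Ddit4, an inhibitor of mTORC1, lowest at −1.09, then Akt1s1 at −0.34. Of Myc and RNA polymerase I genes 6 were measured at 24 h, 2 of them above 0, with Myc at 1.05 and Ubtf at 0.25 highest and Polr1c (−0.55) and Max (−0.43) lowest. At 36 h 1 of 5 was above 0, Polr1b at 0.33, with Max at −0.75 and Polr1c at −0.24, and Myc was not measured. In the housekeeping list the median was −0.011 at 24 h and −0.12 at 36 h over 12 genes (−0.070 and −0.0095 under median centring), so at 36 h these genes lay in part on the same side as the ribosomal proteins. Among them Actg1 (1.00) and Actb (0.58) were highest and Tbp (−0.64) lowest at 24 h, and B2m (0.65) and Sdha (0.38) were highest at 36 h, with Ywhaz at −0.35.

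**Figure D5:**
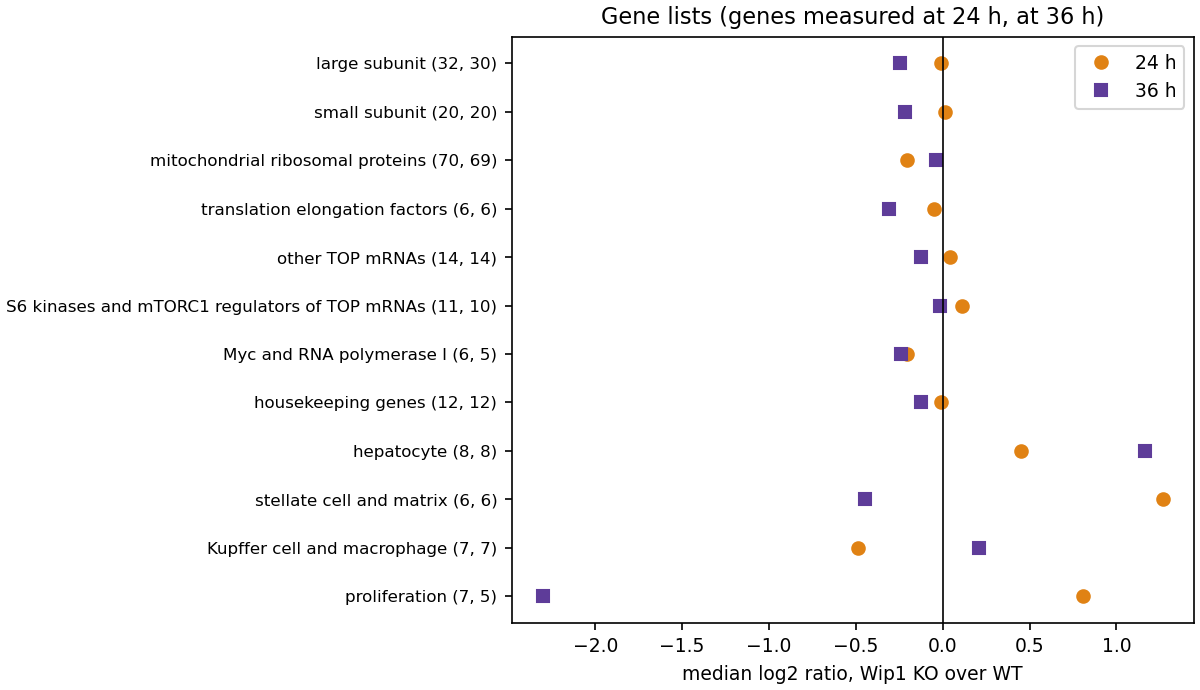
Median log2 ratio of Wip1 KO over WT (horizontal axis) for both subunits, related gene lists and marker lists; circles are 24 h, squares are 36 h, and the numbers of genes measured at each time stand in parentheses. Both subunits lie near 0 at 24 h and at −0.25 and −0.22 at 36 h, while proliferation markers lie at 0.81 and −2.30; the medians of the small subunit at 24 h, of the mitochondrial list at 36 h, of the other TOP mRNAs at 24 h and of the S6 kinase list at both times change sign under median centring.

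Markers of dividing cells, stellate cells and bile duct had a lower median ratio at 36 h than at 24 h, as the ribosomal protein genes did, and those of hepatocytes had a higher one. Of 8 proliferation markers on the array 7 were measured at 24 h, 6 of them above 0 (median 0.81), and at 36 h all 5 measured were below 0 (median −2.30), including Cdc20, a mitotic activator, at −2.63. Their summed level was 9292 in Wip1 KO against 4890.0 in WT at 24 h, and 3401 against 13229 at 36 h, where 5 of 8 were above background in Wip1 KO and 8 of 8 in WT. In the hepatocyte list all 8 genes were above 0 at 36 h (median 1.17), with a summed level of 358953 in Wip1 KO against 188182 in WT, after 302059 against 216981 at 24 h (median 0.45). Of 6 measured stellate cell and matrix genes all were above 0 at 24 h (median 1.27) and below 0 at 36 h (median −0.45), with summed levels of 19720 in Wip1 KO against 11179 in WT at 24 h and 9312 against 11007 at 36 h. Bile duct markers had medians of 0.83 at 24 h (5 measured) and −0.75 at 36 h (3 measured), with summed levels of 8424 in Wip1 KO against 3271 in WT and 2391 against 3751.

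Kupffer cell and macrophage markers had medians of −0.49 at 24 h and 0.21 at 36 h over 7 genes, with summed levels of 16995 in Wip1 KO against 20745 in WT at 24 h and 19044 against 17659 at 36 h. Erythroid markers (3 of 4 measured) had medians of 0.93 and −0.50, neutrophil markers (4 of 5) 0.11 and −0.40, and endothelial markers (5 of 6) 0.11 and 0.41. Under median centring the neutrophil and endothelial medians at 24 h were −0.020 and −0.022. Of 7 lymphocyte markers 1 was above background in Wip1 KO at both times, and 1 and 2 in WT. The part of cell makeup and of dividing cells in the ratios of the ribosomal protein genes was not tested.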

How the data were processed

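The study measured liver RNA on 2 arrays of 2 colours, 1 per time, each with Wip1 KO against WT. Per the file headers, the deposited scanner files hold raw foreground and background intensity per spot, read at 635 nm (Wip1 KO) and 532 nm (WT) and not normalised by the authors. A second deposited table gives the authors' normalised ratio of both genotypes per probe on a linear scale, made by a method not given in the sources used here (medians 0.999 and 1.00). Its gene probes were placed in descending probe order, since the ratios then correlated with the loess ratios at 0.974 at both times and at 0.020 and 0.041 with the order displaced by 1 probe. It was used as an alternative only.

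Here the median signals were corrected by normexp with an offset of 50, normalised by loess within arrays with control spots at weight 0 and by Aquantile between arrays (limma 3.58.1, R 4.3.3). The offset shrinks ratios of dim probes. A gene was measured where both channels exceeded background by more than 2 background SDs, and was read from its brightest probe. Differences are log2 ratios, called at 2-fold and at 1.25-fold (0.3219 log2 units, written as 0.32). With no replicates there was no test. Counts and medians came from Python 3.11.15, numpy 2.4.6, pandas 2.3.3 and figures from matplotlib 3.10.9. Names were brought to current symbols with RefSeq's GRCm38.p6 gene table, and 7551 of 31920 gene probes had no usable name.

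The members and the gene lists were chosen with earlier results of these data known. Any measured member could be named, and all 4 levels are printed for the 3 highest and 3 lowest of each subunit by ratio at each time and by the difference; up to 2 highest and 2 lowest genes of related lists are named. A few genes that this rule names are not reported here, though counts and medians include them. Rpl8, Rpl13, Rpl26, Rpl32, Rpl41, Rps2, Rps23, Rps29 and the marker Cdc20 were chosen after their values were seen. The alternatives were median centring, print-tip loess, plain background subtraction, no filter and a filter of 5 background SDs on dim spots, the mean over probes, the deposited ratios and, for the times, quantile normalisation and no scaling between arrays.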

Additional observations from a re-analysis of the deposited data

Results flagged for a closer look

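On its brightest probe Rpl5 had ratios on opposite sides of 0 at both times, with −0.47 at 36 h and 0.41 at 24 h. Each was beyond the spread of the control spots taken at double its SD. The log2 ratio of Wip1 KO over WT at 36 h minus that at 24 h was −0.88. Its second probe gave −0.16 at 36 h and 0.48 at 24 h, and its 48 control spots gave means of −0.19 at 36 h and 0.45 at 24 h. The 36 h value of the second probe lay within double the SD of the control spots, which was 0.31 at that time. That SD is one of single spots, so the mean of 48 spots is not set against it. Of these 48 spots 6 were above 0 at 36 h. The difference between the times was not tested, since each time had 1 array. Proliferation markers had medians of −2.30 at 36 h and 0.81 at 24 h, and their part in the Rpl5 values was not tested.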

How the results depend on the processing

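Median centring moved the medians by subunit most. At 36 h they were −0.13 for the large and −0.096 for the small subunit under it (−0.25 and −0.22 as reported), and the differences of the ratio between the times −0.049 and −0.051 (−0.25 for both as reported). Within WT they were 0.082 and 0.071 (0.18 and 0.17 as reported), and within Wip1 KO −0.012 and −0.054 (−0.11 and −0.15 as reported). The medians of all genes moved too. Over both subunits the distance from them was 0.14 within WT (0.15 as reported) and −0.16 within Wip1 KO (−0.16 as reported). The medians by subunit at 36 h, of the difference and within each genotype kept their sign under every alternative run, while those at 24 h, near 0, did not. Counts of genes at least 0.32 log2 units apart moved by over 1.5 times in 5 of 37 values of the more frequent direction, and in 10 of 37 of the rarer. Under median centring 7 genes were lower at 36 h (18 as reported), 10 had a lower ratio at 36 h than at 24 h (20 as reported), 5 were higher at 36 h in WT (12 as reported) and 6 were lower at 36 h in Wip1 KO (13 as reported). Beside these 4 counts stood 12.6%, 13.1%, 11.9% and 15.6% of all genes under median centring. Without scaling between arrays 8 of 50 were lower at 36 h in Wip1 KO, beside 23.6% of all genes. The cause of these moves was not tested. Plain background subtraction gave 27 of 50 genes lower in Wip1 KO than in WT at 36 h, beside 19.7% of all genes. The deposited ratios gave 18 of 50, beside 16.9%. The sign of the ratio changed under at least 1 alternative in 13 of 52 genes at 24 h and in 17 of 50 at 36 h. No replicate could be left out. No paired analysis was possible because each time had 1 array. Signal over background limited Rps12, and Rpl22 and Rpl27a at 36 h.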
